A study of Homo sapiens with 23 samples.

Results

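Genes of cholesterol synthesis and sterol regulation were followed in thalamus organoids (ThOs) grown from H1 human embryonic stem cells, an established line. The 31 genes were chosen by name, as enzymes, carriers and regulators of the sterol pathway, and all 31 were among the 9497 genes of the RNA-seq tables. WT organoids came from unedited H1 cells. KO organoids came from H1 cells whose c-JUN gene had been disrupted with CRISPR/Cas9. OE organoids came from c-JUN KO cells that carried a doxycycline-inducible (tet-on) c-JUN. Per the paper, doxycycline in the medium induced it, and whether WT and KO organoids also received doxycycline is not stated. If they did not, c-JUN cannot be told apart from doxycycline in the OE comparisons. All 3 genotypes were induced with the same thalamus protocol, which included BMP7 and the MEK inhibitor PD325901, and were collected at day 25 and day 30. Each of the 6 groups had 2 libraries, each made, per the labels, from 3 pooled organoids and prepared after removal of ribosomal RNA. The study used more than 1 KO clone, and the labels do not give the clone behind a library. Nothing states that the 2 libraries of a group came from separate inductions. The p-values therefore measure the spread between these libraries, pooled over the 6 groups.

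Cells make cholesterol from acetyl-CoA. The mevalonate arm builds isoprenoid units and joins them to farnesyl diphosphate, and the squalene and sterol arm condenses these to squalene, closes the ring and trims the sterol. SREBP transcription factors are held in the endoplasmic reticulum with SCAP and INSIG proteins while sterols are plentiful, and they activate most of these genes, and fatty acid genes, when sterols run low. Developing neural tissue depends on its own synthesis, since plasma cholesterol hardly enters the brain, and dividing progenitors and growing axons both need membrane.

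The values are whole-number normalized expression scores. The minimum (11), the median (106) and the maximum (9910) were the same in all 12 libraries, so the sequencing depth behind a value is unknown and a shift of all genes could not show. Levels are compared only within a gene, since nothing states that the values are scaled to gene length. Fold changes are differences of log2(value + 1) from limma, with a standard error (SE), and p-values were Benjamini-Hochberg adjusted across the 9497 genes. A call needed both an adjusted p below 0.05 and a difference of 2-fold or more. The summed values per library lay between 1788282 and 1798596. The ranks of genes correlated between replicates at a Spearman rho of 0.936 to 0.959 in the WT and OE groups, but at 0.821 in KO day 25 and 0.769 in KO day 30. Against all other libraries, the median rho was 0.745 for KO day 30 replicate 2 and 0.929 for KO day 30 replicate 1. For replicates 1 and 2 of KO day 25 it was 0.854 and 0.830. Replicates were at least 2-fold apart for 17.4% and 21.5% of all genes in KO, against 1.75% to 4.45% in the WT and OE groups. The fit gave each gene 1 spread for all groups. An SE can thus be too small where KO is compared and too large in OE against WT. JUN itself was listed at 139 and 153 in WT, 353 and 196 in KO, and 224 and 212 in OE at day 25. At day 30 it was 128 and 162 in WT, 222 and 248 in KO, and 362 and 202 in OE. JUN was thus not lower in the libraries labelled KO, where all 4 values lay above all 4 WT values (log2 fold change over both days 0.77, SE 0.23, adjusted p = 0.197), and its induction was not visible as a difference between OE and KO (-0.03, SE 0.23, adjusted p = 0.949). The paper, by contrast, reports no c-JUN mRNA by RT-qPCR in KO neural progenitor and cerebral organoid cultures, and no c-JUN protein in KO cell lines. The values here differ from that report, and the reason was not tested. The JUN values did not bear out the labels KO and OE. No other check of the labels was made, and KO and OE below mean the libraries with those labels. Of markers of the labelled tissue, 3 of 7 thalamus genes (TCF7L2, LHX9 and NTNG1) were in the tables, as were 11 of 12 neuronal genes, and none of 4 pluripotency genes was.

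The sterol genes did not move evenly over the libraries. Both second replicates of the KO groups stood below the other libraries. The median of the 31 genes, taken as log2 deviations from each gene's mean over the 12 libraries, was -0.45 in KO day 25 replicate 2 and -0.44 in KO day 30 replicate 2. It was -0.12 and 0.10 in the first KO replicates, between -0.15 and 0.12 in the WT libraries and between 0.07 and 0.35 in the OE libraries. The median over all genes stayed between -0.01 and 0.03. KO day 30 replicate 2 held the lowest of the 12 values for 14 of the 31 genes, where 23.0% of all genes had their lowest value. KO day 25 replicate 2 held the lowest value of 10 (15.9% of all genes). The highest value of 12 of the 31 genes was in OE day 30 replicate 2 (8.02% of all genes) and that of 8 in OE day 25 replicate 2 (6.64% of all genes). Between the KO replicates at day 30, 9 of the 31 genes were at least 2-fold apart, namely MVD, IDI1, FDFT1, SQLE, EBP, INSIG1, NPC1, FADS1 and SCD, against 21.5% of all genes. At day 25 it was 2 of the 31 (HMGCS1 and PMVK), against 17.4% of all genes. Of the 31 genes 23 were lower in the second KO replicate at day 25 and 24 at day 30, where 50.0% and 49.2% of all genes were.

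**Figure D1:**
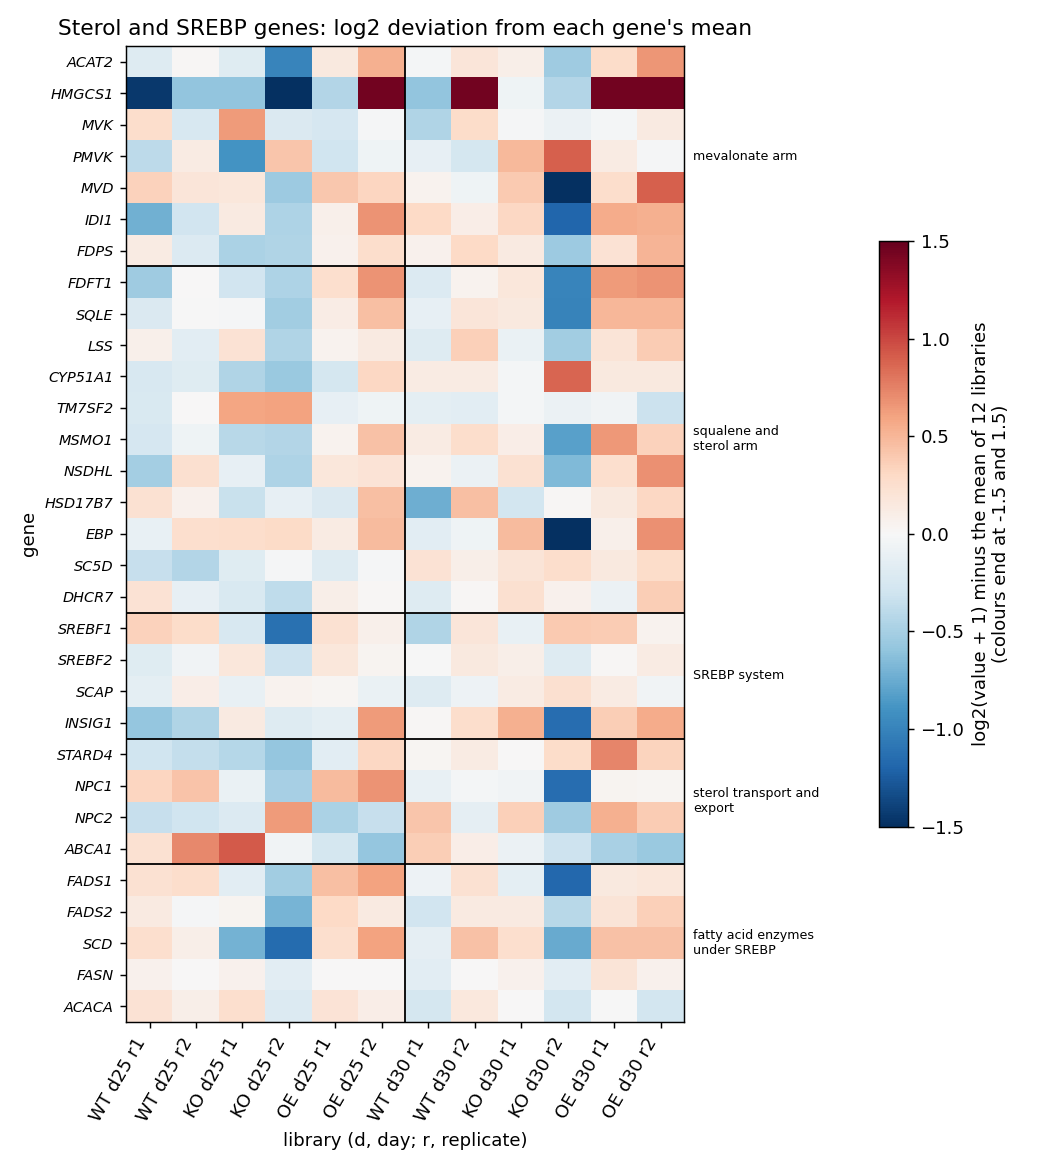
Each cell shows the log2 deviation of a gene (rows, by role) from its mean over the 12 libraries (columns, day 25 on the left and day 30 on the right), with red above and blue below the mean and colours ending at -1.5 and 1.5. KO day 25 replicate 2 and KO day 30 replicate 2 are blue in most rows, with medians of -0.45 and -0.44, while KO day 30 replicate 1 has a median of 0.10.

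**Figure D2:**
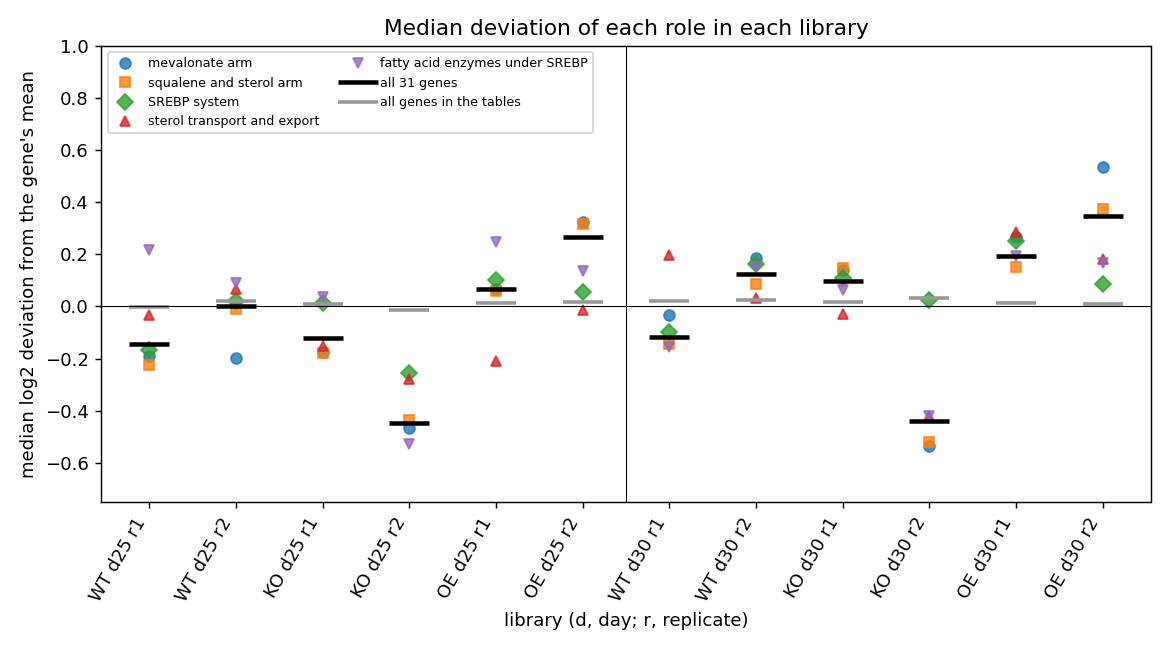
Median log2 deviation from each gene's 12-library mean (vertical axis) in each library (horizontal axis) for the 5 roles (coloured symbols), all 31 genes (black bars) and all 9497 genes (grey bars). The black bars are lowest in the second KO replicate of each day and highest, at 0.35, in OE day 30 replicate 2.

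OE against KO was the only genotype comparison with a called sterol gene. Averaged over the days, 1 of the 31 genes was called, SCD, against 2.22% of all genes. Without the fold threshold 3 passed an adjusted p of 0.05, SCD, FADS1 and FDFT1, against 3.3% of all genes. All 3 were higher in OE. At an unadjusted p under 0.05, 15 genes were higher in OE and 2 lower, where 11.5% of all genes were higher and 10.7% lower. The median log2 fold change of the 31 genes was 0.48, and 24 lay above 0, against a median of 0.01 over all genes. All 4 OE libraries lay above all 4 KO libraries for 4 genes (FADS1, FDFT1, ACAT2 and NPC1), where 5.17% of all genes did so, and below them for 0 genes, against 4.51%. Bulk RNA cannot tell more cells of a type from more RNA per cell.

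Among the fatty acid enzymes under SREBP, all 5 log2 fold changes were above 0. SCD (stearoyl-CoA desaturase, chromosome 10, 100347233 to 100364826 on GRCh38) puts the first double bond into saturated fatty acids. Its values were 1079 and 788 in KO and 2090 and 2670 in OE at day 25, and 2090 and 1042 in KO and 2394 and 2394 in OE at day 30. WT gave 2090 and 1878 at day 25 and 1602 and 2394 at day 30. Only the first KO replicate of day 30 reached the lowest OE value, and the other 3 KO libraries lay below every WT and OE library. In OE against KO the log2 difference was 1.03 (SE 0.21, adjusted p = 0.0306), a 2.04-fold difference that passed the 2-fold threshold narrowly. The scale is coarse at this level, with only 19 distinct values above 2000 over all libraries. SCD took the same step, 2394, in both OE libraries of day 30, so its fold change and spread depend on these steps.

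FADS1 (chromosome 11, 61799627 to 61829318) is a front-end desaturase of polyunsaturated fatty acids. It was 558 and 432 in KO and 849 and 946 in OE at day 25, and 562 and 274 in KO and 687 and 700 in OE at day 30. The KO and OE libraries did not overlap, and the log2 fold change was 0.84 (SE 0.20, adjusted p = 0.0441). WT values of 732 and 747 at day 25 and 592 and 732 at day 30 were also above every KO library. FADS2, its partner desaturase, ranged from 608 to 1258 over the 12 libraries and differed by 0.48 (SE 0.18, adjusted p = 0.157). FASN, the fatty acid synthase, and ACACA, which makes its malonyl-CoA, gave log2 fold changes of only 0.11 and 0.07, with ranges of 1259 to 1604 and 354 to 510.

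In the squalene and sterol arm, 9 of 11 genes were above 0, 5 were higher at an unadjusted p under 0.05 and 1 was lower. FDFT1, the squalene synthase that commits farnesyl diphosphate to sterols (chromosome 8, 11795573 to 11839304), was 472 and 420 in KO and 688 and 922 in OE at day 25. At day 30 it was 650 and 291 in KO and 896 and 922 in OE. Every OE library was above every KO and WT library, the WT values being 400, 578, 500 and 600. Against KO the log2 difference was 0.95 (SE 0.23, adjusted p = 0.0487), just short of 2-fold at 1.93-fold.

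MSMO1, a methylsterol oxidase, was next in order. It stood at 405 and 400 in KO and 564 and 734 in OE at day 25, and at 580 and 309 in KO and 854 and 690 in OE at day 30. On the log2 scale the difference was 0.77 (SE 0.19, adjusted p = 0.0511), outside the threshold, and KO day 30 replicate 1 exceeded the lowest OE library. SQLE, the squalene epoxidase, was 316, 222, 354 and 159 in the 4 KO libraries and 344, 438, 450 and 450 in the 4 OE libraries. This came to 0.73 on the log2 scale (SE 0.23, adjusted p = 0.106). KO day 30 replicate 1 overlapped the lower end of OE here. NSDHL, a sterol dehydrogenase, differed by 0.58 and LSS, which closes the ring to lanosterol, by 0.40, both at unadjusted p under 0.05 only.

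The other genes of this arm showed smaller or less even differences. EBP, a sterol isomerase, was 116 and 118 in KO at day 25 but 134 and 19 at day 30, against 105, 134, 102 and 156 in OE. Its log2 fold change was 0.66 (SE 0.46, adjusted p = 0.421), and the value of 19 was in KO day 30 replicate 2. HSD17B7, CYP51A1, DHCR7 and SC5D, which act between lanosterol and cholesterol, had log2 fold changes of 0.35, 0.13, 0.17 and -0.01. CYP51A1 had its highest value, 896, in KO day 30 replicate 2, the library where 14 of the 31 genes were lowest.

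TM7SF2, a sterol reductase of the same arm, ran the other way at day 25. It was 366 and 368 in KO, 207 and 243 in WT and 222 and 232 in OE. At day 30 the groups lay together, at 219 and 217 in WT, 238 and 228 in KO and 234 and 194 in OE. Both KO libraries of day 25 were above the other 10 libraries. The log2 fold change of OE against KO was -0.69 at day 25 (SE 0.19, adjusted p = 0.113) and -0.41 over both days (SE 0.14, adjusted p = 0.122).

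**Figure D3:**
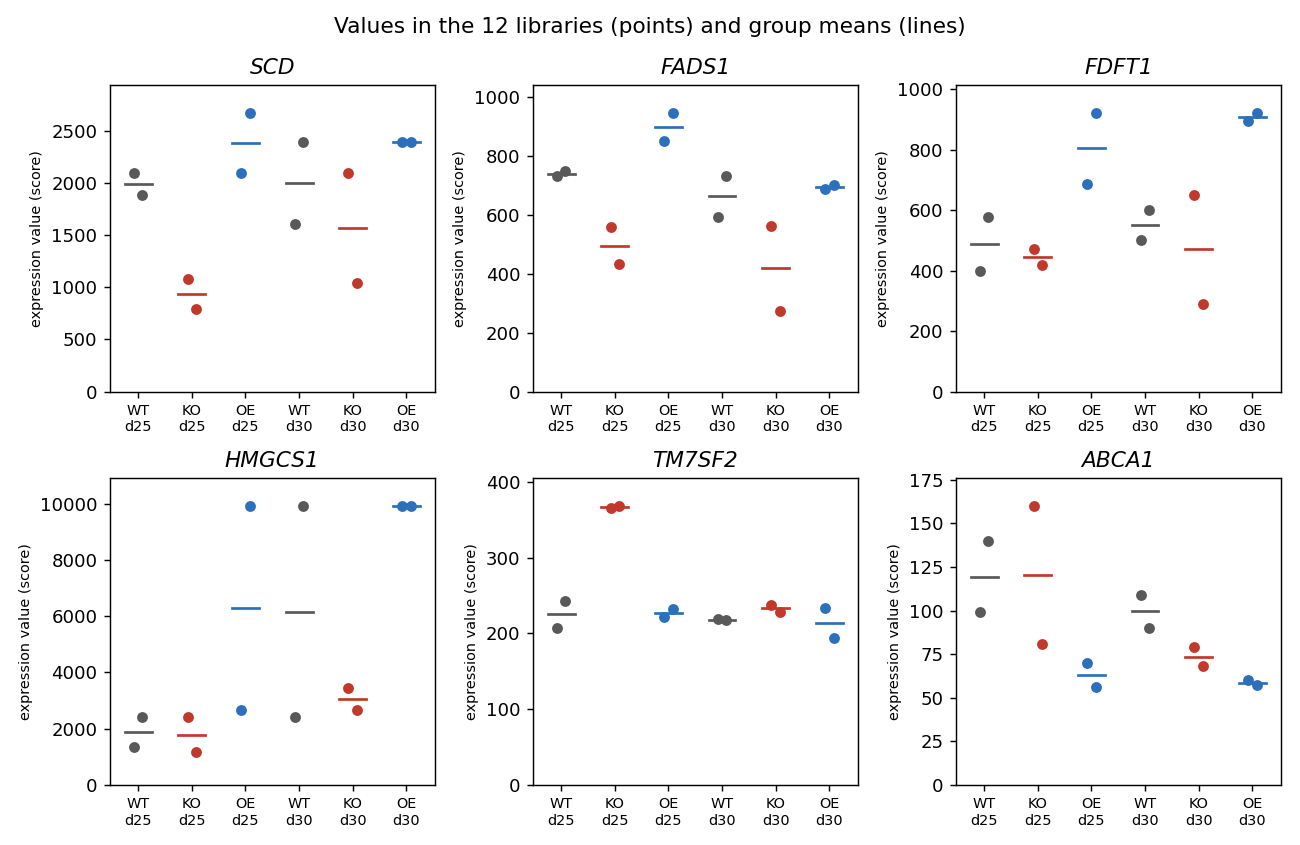
Expression values (score, linear axes from 0) of 6 genes in the 12 libraries, with points for libraries and lines for the means of the 6 groups, WT grey, KO red and OE blue (d, day). FADS1 and FDFT1 have no KO point as high as the lowest OE point, SCD has 1 KO point at 2090, TM7SF2 is high only in the KO libraries of day 25, and ABCA1 is lowest in OE.

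In the mevalonate arm 5 of 7 genes were higher at an unadjusted p under 0.05 and none passed after adjustment. ACAT2, the cytosolic thiolase that makes acetoacetyl-CoA, was 226 and 128 in KO and 284 and 370 in OE at day 25, and 272 and 176 in KO and 310 and 406 in OE at day 30. The OE libraries lay above all KO libraries. The log2 fold change was 0.81 (SE 0.22, adjusted p = 0.0685). FDPS, the farnesyl diphosphate synthase, was 260, 266, 400 and 248 in KO and 380, 437, 422 and 516 in OE. KO day 30 replicate 1 again lay within the OE range, and the log2 fold change was 0.60 (SE 0.17, adjusted p = 0.0812).

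HMGCS1, the cytosolic HMG-CoA synthase, had the largest log2 fold change of the 31 genes, 1.67 (SE 0.47, adjusted p = 0.0765). Its values were 2400, 1158, 3456 and 2670 in KO and 2674, 9910, 9910 and 9910 in OE. WT had 1332, 2399, 2400 and 9910. The size of this change depends on the scale, because 9910 is the top value of every table, shared by 8 to 10 genes in a library, and the next value below it is 3456, a step of 2.87-fold.

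IDI1, which isomerizes isopentenyl diphosphate, was 252, 166, 285 and 100 in KO and 242, 366, 338 and 334 in OE. The log2 fold change was 0.76 (SE 0.29, adjusted p = 0.169), with KO above the lowest OE value in both first replicates. MVD, the mevalonate diphosphate decarboxylase, was 138, 84, 162 and 22 in KO and 163, 154, 148 and 230 in OE. Its log2 fold change of 1.08 had an SE of 0.47 and an adjusted p of 0.207, with the value of 22 in KO day 30 replicate 2. The mevalonate kinases MVK and PMVK had log2 fold changes of -0.12 and -0.29 and ranged from 56 to 120 and from 30 to 106.

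In the SREBP system no gene reached an unadjusted p under 0.05 over both days. SREBF2, which encodes the SREBP of the cholesterol genes, was 700, 500, 662 and 546 in KO and 703, 640, 629 and 678 in OE, overlapping at both days. Their log2 fold change was 0.15 (SE 0.14, adjusted p = 0.546). SCAP, the escort of SREBPs, ranged from 284 to 382 over all libraries and differed by -0.07 (SE 0.13). SREBF1, whose product favours fatty acid genes, differed by 0.45 (SE 0.24, adjusted p = 0.292). At day 25 alone SREBF1 was 150 and 134 in OE against 108 and 58 in KO. That difference was 0.83 (SE 0.34, unadjusted p = 0.0309, adjusted p = 0.233 by limma), and at day 30 it was 0.07 (SE 0.34). INSIG1, which retains SCAP in the endoplasmic reticulum and is itself a target of SREBPs, was 239, 190, 314 and 98 in KO and 196, 338, 282 and 320 in OE. Its log2 fold change of 0.52 had an SE of 0.31 and an adjusted p of 0.349.

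The 4 sterol transport and export genes did not share a direction. NPC1, which moves cholesterol out of lysosomes, was 98, 74, 101 and 47 in KO and 146, 168, 108 and 107 in OE. No KO library reached an OE library, and the log2 fold change was 0.75 (SE 0.24, adjusted p = 0.101). STARD4, a cytosolic sterol carrier under SREBP control, was 155, 140, 210 and 254 in KO and 188, 261, 350 and 265 in OE. OE was above KO within each day, and over both days the log2 fold change was 0.49 (SE 0.17, adjusted p = 0.126).

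ABCA1, the pump that loads cholesterol onto apolipoproteins and responds to oxysterols through LXR, was 160 and 81 in KO and 70 and 56 in OE at day 25, and 79 and 68 in KO and 60 and 57 in OE at day 30. Its log2 fold change was -0.59 (SE 0.24, adjusted p = 0.187), and the groups overlapped only between 68 in KO and 70 in OE. NPC2, the soluble partner of NPC1, ranged from 49 to 112 and differed by -0.04.

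Each day on its own had fewer libraries, and no sterol gene was called in OE against KO at either. At day 25, 10 genes were higher and 2 lower at an unadjusted p under 0.05 (9.31% and 8.5% of all genes), 0 of 31 were called (0.274% of all genes), and SCD came closest, at 1.36 on the log2 scale (SE 0.30, adjusted p = 0.0675). At day 30, 11 were higher and 0 lower (5.9% and 5.01% of all genes), 0 of 31 were called (0.0842% of all genes), and FDFT1 had the smallest adjusted p, 0.374, at 1.06 (SE 0.32). The medians of the 31 genes were 0.48 and 0.54.

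These counts depended on single libraries of both genotypes. With libraries left out, the shares of all genes at an unadjusted p under 0.05 were not computed. A fall in these counts can thus not be told apart from a fall over all genes. Both second KO replicates were left out together after their low values were seen, so a smaller difference followed from that choice itself. KO day 30 replicate 2 also stood apart over all genes, with a median rho to the other libraries of 0.745. Without both second KO replicates the median log2 fold change of OE against KO was 0.19 (0.01 over all genes), 8 genes were higher at an unadjusted p under 0.05 in place of 15, and 0 were called, SCD having an adjusted p of 0.0501 and a log2 difference of 0.66. The 10 genes higher at day 25 became 1 without the second KO replicate or without the second OE replicate of that day. The 11 at day 30 became 0 without KO day 30 replicate 2, 2 without OE day 30 replicate 2 and 5 without OE day 30 replicate 1. The SCD call was also lost when any single OE library, either WT library of day 25 or the second KO replicate of either day was left out, while its log2 difference stayed between 0.776 and 1.115. Without KO day 30 replicate 1 more genes were called throughout the tables, 9 of the 31 over both days (10.2% of all genes) and 10 at day 30 (15.2%). Without KO day 25 replicate 1, 2 were called over both days (3.17%).

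**Figure D4:**
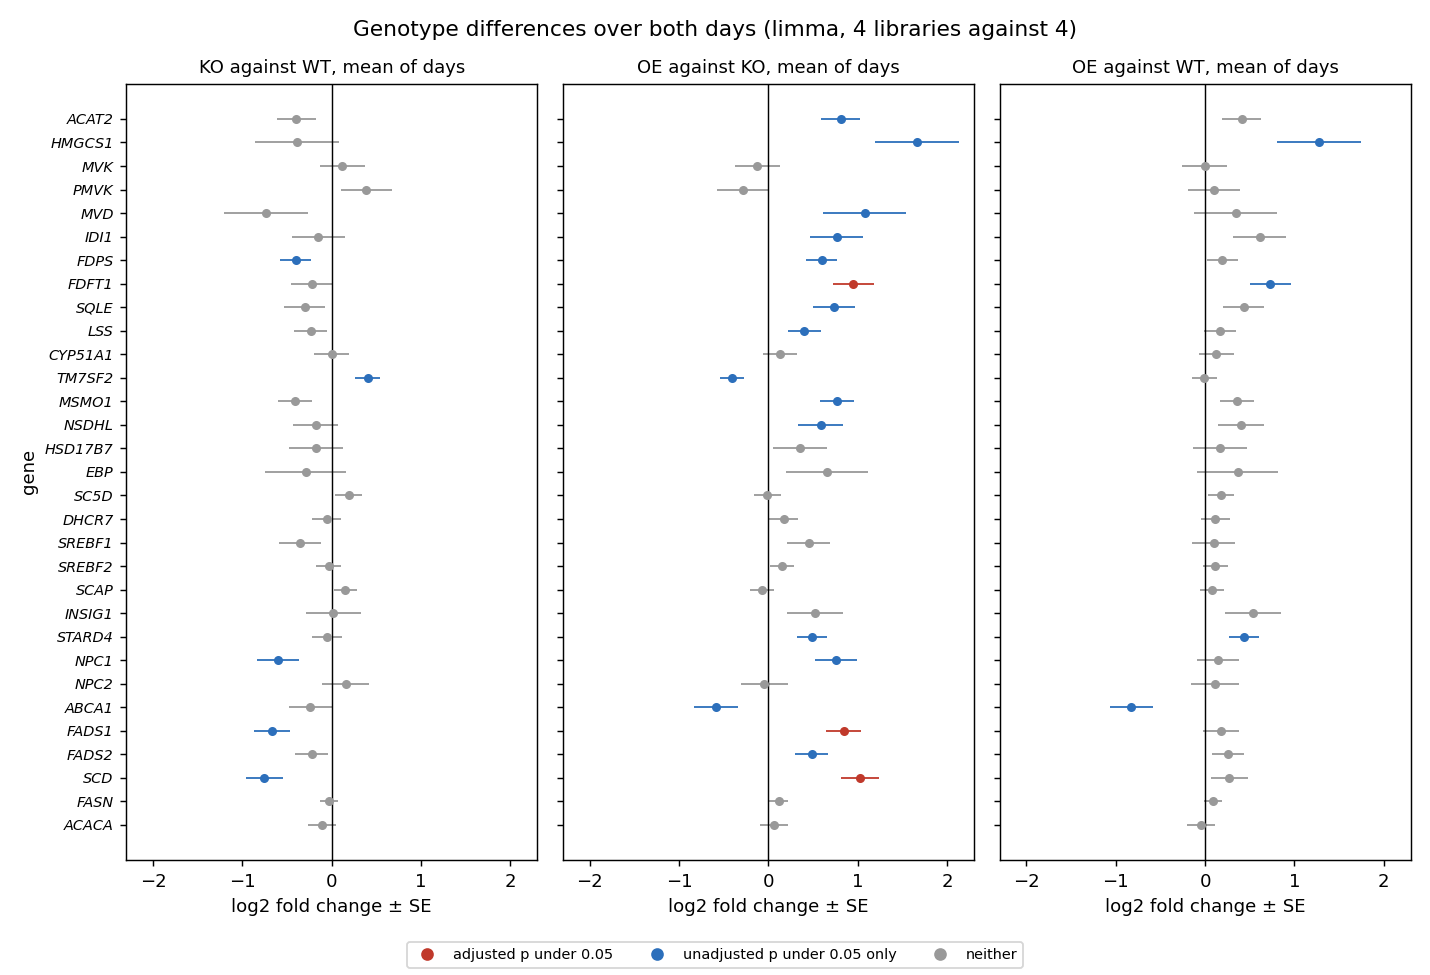
Log2 fold changes with their SE (horizontal axes) of the 31 genes (rows) for the 3 pairs of genotypes named above the panels, each the mean of both days with 4 libraries against 4, red for an adjusted p under 0.05, blue for an unadjusted p under 0.05 only and grey for neither. Red points appear only for SCD, FADS1 and FDFT1 in OE against KO, where 24 of 31 points lie above 0.

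Marker levels moved with the same comparison. Over all 9497 genes it called 100 higher and 111 lower, and 51.4% of them lay above 0. The 12 proliferation genes (MKI67, TOP2A and MCM genes among them) were all above 0 in OE against KO, with a median log2 fold change of 0.73 and 2 called higher. Their summed values were 1986 to 2707 in KO, 2443 to 3462 in WT and 3591 to 3922 in OE, so no OE library overlapped the KO or WT libraries. Of all genes taken singly, 5.17% lay wholly higher in OE than in KO and 4.13% wholly higher than in WT. Neural progenitor and radial glia genes, 8 of 11 in the tables, summed to 3975 to 7783 in KO, 6762 to 13986 in WT and 6857 to 8994 in OE, with 1 called higher in OE against KO. The 9 hypoxia and glycolysis genes had a median of 0.97 with 1 called higher, and their sums were 2959 to 7429 in KO and 4448 to 6127 in OE. Of the 8 choroid plexus genes 1 was called lower. None was called among the thalamus, neuron, mesenchyme, astrocyte, oligodendrocyte and endoplasmic reticulum stress genes in the tables. The part of these levels in the sterol gene values was not tested.

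Of 48 further genes of sterol and fatty acid metabolism and its regulation, 40 were in the tables. In OE against KO over both days 1 of the 40 was called, TMEM97, which encodes a sterol-regulated membrane protein that binds NPC1. Its values were 132, 104, 202 and 100 in KO and 224, 328, 288 and 324 in OE, without overlap, and the log2 fold change was 1.15 (SE 0.23, adjusted p = 0.0282). This was 2.5% of the list, against 2.22% of all genes. At an unadjusted p under 0.05, 9 of the 40 were higher (22.5%, against 11.5% of all genes) and 4 lower (10%, against 10.7%). Their median was -0.02, with 20 above 0 and 20 below. In KO against WT, OE against WT and day 30 against day 25, 0 of the 40 were called.

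Promoters of the sterol genes were searched for sequences that SREBPs bind, and the windows with the core TCACNCCA are printed below. Whether SREBPs had a part in the differences between OE and KO was not tested. RefSeq promoter windows on GRCh38.p14, from 250 bases before to 50 after a transcript start, were at hand for 27 of the 31 genes, not for ACAT2, FDFT1, SQLE and FASN. The sterol regulatory element was searched on both strands as TCACNCCAC, which 1 of 27 genes held (SREBF2), against 1.57% of the 7817 genes of the tables that had a window and 1.13% of all 35116 windows. The shorter core TCACNCCA, which includes the former, was in 3 of 27 genes (11.1%), against 4.77% of genes and 3.95% of windows. The palindromic form TCACGTGA was in INSIG1 alone, against 2.42% of genes and 0.980% of windows. The CCAAT box, the site of NF-Y, a common partner of SREBP, was in 20 of 27 genes (74.1%), against 45.0% of genes and 34.6% of windows. An AP-1 site, TGANTCA, the kind of element JUN dimers bind, was in 0 of 27, against 6.60% of genes and 7.71% of windows. A match describes these letters in this window only. The 3 windows with TCACNCCA follow, with capitals for that core and for each CCAAT box, which reads ATTGG on the other strand. MSMO1 (chr4:165327419-165327718, plus strand) has the core 156 bases before the start and 4 CCAAT boxes, SREBF2 (chr22:41832855-41833154, plus strand) has it 133 bases before with 1 box, and MVK (chr12:109573544-109573843, plus strand) 195 bases before with 5 boxes.
MSMO1: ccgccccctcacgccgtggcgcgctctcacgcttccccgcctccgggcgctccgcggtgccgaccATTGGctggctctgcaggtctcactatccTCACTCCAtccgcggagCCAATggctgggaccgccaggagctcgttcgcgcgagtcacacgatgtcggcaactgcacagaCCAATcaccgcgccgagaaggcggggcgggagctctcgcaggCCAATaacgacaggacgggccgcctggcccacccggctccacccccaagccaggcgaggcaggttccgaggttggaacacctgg
SREBF2: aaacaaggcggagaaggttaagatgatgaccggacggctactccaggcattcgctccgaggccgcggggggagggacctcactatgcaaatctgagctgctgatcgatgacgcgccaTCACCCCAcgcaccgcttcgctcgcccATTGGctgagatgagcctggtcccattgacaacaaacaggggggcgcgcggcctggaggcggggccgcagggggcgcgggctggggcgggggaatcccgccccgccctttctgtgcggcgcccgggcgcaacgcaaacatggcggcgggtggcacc
MVK: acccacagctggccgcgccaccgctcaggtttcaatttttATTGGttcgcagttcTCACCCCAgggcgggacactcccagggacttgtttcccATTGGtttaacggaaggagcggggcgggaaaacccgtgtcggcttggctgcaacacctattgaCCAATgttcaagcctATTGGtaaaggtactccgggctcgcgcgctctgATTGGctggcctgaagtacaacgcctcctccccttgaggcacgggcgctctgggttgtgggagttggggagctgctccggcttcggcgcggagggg
Of these 3 genes, MSMO1 differed most between OE and KO (0.77), while SREBF2 gave 0.15 (SE 0.14) and MVK -0.12 (SE 0.25).

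KO against WT compares the libraries labelled as lacking c-JUN with those of unedited cells. No sterol gene was called in it, at day 25 (0.0105% of all genes called), at day 30 (0% of all genes) or over both days (0.0211%). Over both days 24 of 31 log2 fold changes were below 0 with a median of -0.18, against -0.02 over all genes. At an unadjusted p under 0.05, 1 gene was higher and 4 were lower (7.01% and 8.16% of all genes). The lower ones were SCD at -0.76 (SE 0.21, adjusted p = 0.193), FADS1 at -0.67 (SE 0.20, adjusted p = 0.197), NPC1 at -0.60 (SE 0.24, adjusted p = 0.269) and FDPS at -0.40 (SE 0.17, adjusted p = 0.304). The higher one was TM7SF2, at 0.40 (SE 0.14, adjusted p = 0.233). All 4 KO libraries lay below all 4 WT libraries for FADS1 alone (3.14% of all genes) and above them for 0 genes (2.74%). WT values of NPC1 were 132 and 142 at day 25, against 98 and 74 in KO, and 97 and 103 at day 30, against 101 and 47. Without both second KO replicates the median was 0.08 in place of -0.18. These replicates were left out after their low values were seen, so a rise followed from the choice itself. The omission thus cannot decide what the direction of the list rested on. The median stayed below 0 without KO day 25 replicate 2 alone (-0.056) and without KO day 30 replicate 2 alone (-0.029). Some marker lists lay mostly below 0 in this comparison too. These included 8 of 8 progenitor and radial glia genes (median -0.58), 8 of 9 hypoxia and glycolysis genes (-0.54) and 10 of 12 proliferation genes (-0.42). Others lay mostly above 0, with 8 of 11 neuron genes (median 0.24) and 5 of 8 choroid plexus genes (0.27). So did 3 of 5 endoplasmic reticulum stress genes (0.12) and 2 of 3 thalamus genes (0.04). The part of any list in the sterol values was not tested.

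By day, 3 genes passed an unadjusted p of 0.05 at day 25, against 13.4% of all genes, namely SCD (-1.10, SE 0.30, adjusted p = 0.195), TM7SF2 (0.71, SE 0.19, adjusted p = 0.199) and SREBF1 (-0.99, SE 0.34, adjusted p = 0.255). SREBF1 was 162 and 154 in WT and 108 and 58 in KO at day 25, and 93 and 145 in WT and 118 and 168 in KO at day 30. The KO libraries were thus lower at the first day and overlapped WT at the second. At day 30 only FADS1 had an unadjusted p under 0.05 (-0.74, SE 0.28, adjusted p = 0.643), against 7.36% of all genes. Without KO day 30 replicate 1, 8 of the 31 genes were called at day 30 (11.4% of all genes) and 2 over both days (5.66%). The change of the KO effect between days was called for 0 of 31 genes and 0% of all genes, and SREBF1 had the smallest unadjusted p in that test, 0.0224, at 1.26 (SE 0.48, adjusted p = 0.802). Without KO day 30 replicate 1, 1 of the 31 was called, against 1.99% of all genes.

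OE against WT compares the libraries labelled as KO with added c-JUN with those of unedited cells. No sterol gene was called at day 25 (0% of all genes), at day 30 (0.0316%) or over both days (0.158%). Over both days 27 of 31 log2 fold changes were above 0 with a median of 0.18, against 0.00 over all genes, and 3 genes were higher and 1 lower at an unadjusted p under 0.05 (3.53% and 4.69% of all genes). The lower gene was ABCA1, at -0.83 (SE 0.24, adjusted p = 0.312). Its WT values were 99 and 140 at day 25 and 109 and 90 at day 30, all above the OE range of 56 to 70. FDFT1 was higher by 0.73 (SE 0.23, adjusted p = 0.368), HMGCS1 by 1.27 (SE 0.47, adjusted p = 0.486) and STARD4 by 0.44 (SE 0.17, adjusted p = 0.499). STARD4 was 170 and 163 in WT at day 25 and 214 and 228 at day 30. Groups did not overlap for FDFT1, above WT (4.13% of all genes), and for ABCA1, below it (4.34%). SCD differed from WT by 0.27 (SE 0.21) and FADS1 by 0.18 (SE 0.20). The 3 genotype comparisons share libraries, so their values are given side by side and are not independent of each other.

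Day 30 against day 25, over the 3 genotypes, called 0 of 31 sterol genes and 0% of all genes. At an unadjusted p under 0.05, 4 were higher at day 30 (5.76% of all genes) and 2 lower (5.54%), with a median of 0.11 against 0.01 over all genes. STARD4 was higher by 0.50 (SE 0.14, adjusted p = 0.256), and its values at day 25 (140 to 261) and day 30 (210 to 350) overlapped. SC5D, a sterol desaturase, had 123 to 166 at day 25 and 178 to 204 at day 30, so every library of day 30 was above every library of day 25, by 0.40 on the log2 scale (SE 0.12, adjusted p = 0.283). CYP51A1, the lanosterol demethylase, was higher by 0.46 (SE 0.16) and HMGCS1 by 1.09 (SE 0.38), while TM7SF2 changed by -0.26 (SE 0.11) and NPC1 by -0.43 (SE 0.19). None of these passed after adjustment.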

How the data were processed

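Human ThO RNA-seq libraries (12) were analysed, and 11 ATAC-seq and CUT&Tag samples were not used here. The authors deposited 1 table per library with a gene identifier, position, symbol and value. The deposited values are a normalized score rounded to whole numbers, and their normalization is not given in the sources used here. The equal minimum, median and maximum of all tables mean that real shifts of all genes are lost. The submitters' processing notes name bcl2fastq, RSEM, Bowtie2 and hg19, while all 31 genes overlap their RefSeq GRCh38 position. Depth per library is unknown, so no counting interval was computed.

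Groups came from genotype, day and replicate in the sample labels. Log2(value + 1) was fitted with limma 3.58.1 in R 4.3.3, with 6 group means, 6 residual degrees of freedom, moderation toward an intensity trend and 5.29 prior degrees of freedom. A filter of at least 1 in 2 libraries removed 0 genes. The study's cut-offs (p under 0.05, at least 2-fold) set the calls, with adjusted p-values. The fit was tested on simulated data that gave each gene 1 spread in all groups. That test thus does not cover the wider spread of the KO libraries. The members, roles, marker lists and alternatives were chosen with earlier results of these data known. Full statistics were given to called members or, where fewer, the smallest unadjusted p up to 5 per comparison, and values by library to further members in order of unadjusted p or as examples of their role. EBP, IDI1, INSIG1, MVD and SREBF2 were taken as examples after their values were seen. Other scalings, pseudocounts (0.1 and 5), filters, models and left-out libraries were tried. Same-numbered replicates deviated together at correlations of -0.214 to 0.262 over 15 pairs of groups. These correlations cannot exclude that same-numbered libraries shared a batch. The main fit had no replicate block.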

Additional observations from a re-analysis of the deposited data

Results flagged for a closer look

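For 3 genes, both libraries of a genotype lay above both of the other at 1 day and below both at the other day. Log2 fold changes of opposite sign at the 2 days were seen for 13 of the 31 genes in KO against WT, for 6 in OE against KO and for 8 in OE against WT. Libraries apart in opposite directions were found for 1 gene in each of these comparisons, against 3.75%, 3.47% and 2.77% of all genes. DHCR7, the last reductase of cholesterol synthesis, was below WT in both KO libraries at day 25 (log2 fold change -0.35) and above it in both at day 30 (0.24). The interaction of genotype and day was 0.60 (SE 0.33, adjusted p = 0.802 by limma). NPC2 was lower in OE than in KO at day 25 (-0.63) and higher at day 30 (0.54). FASN was barely lower in OE (1410 and 1410) than in WT (1466 and 1411) at day 25 (-0.029, SE 0.14). At day 30 it was higher (0.20, SE 0.14). The differences between days of NPC2 and FASN were not tested.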

How the results depend on the processing

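Groups had 2 libraries, and the SCD call was lost without any of 8 single libraries. Members called in OE against KO over both days numbered 1, and 0 with only the compared libraries, with library weights, without the intensity trend or without both second KO replicates (chosen after seeing the data), 3 without a fold threshold (3.3% of all genes), 7 at an adjusted p under 0.1 and 1.5-fold (7.24%), and 0 to 9 with single libraries left out (10.2% where it was 9). At day 25 there were 0, but 1 at an adjusted p under 0.1 and 1.5-fold (2.92%). The count of day 25 also moved when KO libraries were left out. Leaving out single libraries gave 0 to 10 for OE against KO at day 30, 0 to 8 for KO against WT at day 30, 0 to 2 over both days, and 0 to 1 for the change of the KO effect, where the highest counts went with 15.2%, 11.4%, 5.66% and 1.99% of all genes. Without both second KO replicates the members' median was 0.19 for OE against KO and 0.076 for KO against WT. With a replicate block, 1 member was called in OE against KO over both days (1.46% of all genes), and 13 were higher at an unadjusted p under 0.05. The block changed no call of a member in the other comparisons. SCD stayed called in 11 of 23 alternatives, with adjusted p from 0.00162 to 0.133. Of 897 values for single genes, 872 kept their direction and side of the threshold, 13 passed it newly and 12 no longer passed, and none reversed. Why these counts moved was not tested. Depth is unknown, so low values such as 19 and 22 carry an unknown error.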
